A study of Mus musculus with 6 samples.

Results

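The collagen genes of the mouse hippocampus were compared between control (CTR) mice and Short Day (SD) mice. Members were the genes of the deposited count table whose symbol has the form of a collagen chain name (Col, a number, a, a number), and 42 of the 15423 genes met this rule. All 42 passed the filter on low counts. All mice were C57BL/6J. The 3 CTR mice, numbered 1, 2 and 5 in the labels, came from colonies held under 12 h of light alternating with 12 h of dark. The 3 SD mice, numbered 2, 5 and 6, were conceived and raised under 8 h of light alternating with 8 h of dark until day 42. Age and clock time at dissection, and whether mice were littermates, are not stated in the labels or the methods of the study, and the p-values therefore reflect only the variation among these 6 mice, which may be technical. The study describes dissected hippocampi, whereas the extraction text of the labels speaks of cells and spheroids.

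Collagens are extracellular proteins in which 3 chains wind into a triple helix, and a molecule may hold identical chains or chains of different genes. Fibrillar collagens form cables, type IV collagen forms the sheet of basement membranes under epithelia and around blood vessels, and smaller families form networks, decorate fibrils or span the cell membrane. In the adult brain they are found mainly around vessels, in the leptomeninges that cover the brain, and in the choroid plexus, the epithelium that secretes cerebrospinal fluid. Some, such as types XIX and XXV, are made by neurons.

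Total counts ranged from 23300710 to 30035148 in CTR mice and from 25755316 to 34447082 in SD mice, and levels are given as counts per 1000000 counts of the library (CPM) after TMM scaling. Values of single mice follow 1 order throughout, mice 1, 2 and 5 for CTR and mice 2, 5 and 6 for SD. Hippocampal neuron markers were all 12 present, and their summed level was 1400.1 to 1429.5 CPM in CTR mice and 1343 to 1443 CPM in SD mice. Several libraries stood apart. Markers of choroid plexus epithelium, 16 of 16 in the table and none at 0 in any mouse, summed to 156 CPM in CTR mouse 2, to 1652 and 3235 CPM in CTR mice 1 and 5, and to 2569, 7472 and 7652 CPM in SD mice 2, 5 and 6. By the edgeR cutoffs used for the collagens, 14 of these 16 were called higher in SD mice, beside 2.1% of all genes tested, and DESeq2 called 5 of them, beside 1.47%. The median log2 fold change of the 16 was 1.68 in edgeR. Thalamic markers (11 of 11) summed to 408 CPM in CTR mouse 2 and to 195 to 294 CPM in the other 5 mice, and 6 of the 11 were called lower in SD mice, beside 0.88% of all genes. Of 12 hypothalamic markers 4 were in the table. They summed to 3.01 to 5.35 CPM in CTR mice and to 28.1, 9.14 and 7.06 CPM in SD mice. Of the 4, 3 were called higher, beside 2.1% of all genes. The table holds only genes with at least 40 counts over the 6 mice. A marker low in CTR mice can enter it through high SD mice, so this count is no test. In CTR mouse 1 Rn45s, a precursor of ribosomal RNA, made up 1.84% of counts against 0.164% to 0.231% elsewhere, and CTR mouse 5 alone had high Xist, the RNA of the inactive X chromosome of females (30044 counts against at most 20). In bulk tissue fewer cells of a type and less RNA per cell cannot be told apart.

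Of the 42 collagen genes 9 were called higher and 1 lower in SD mice, and the 32 others were not called. Calls required an unadjusted p no higher than 0.05 and a log2 fold change of 0.58 or more in either direction in edgeR's quasi-likelihood test. These cutoffs are those of the study, which applied them in DESeq2 rather than edgeR. Over all 15345 genes tested, 2.1% were called higher and 0.88% lower, 2.98% together. The median log2 fold change was -0.019 over the collagens and 0.0015 over all genes, so the family as a whole did not lie to one side: 19 members had a fold change above 0 and 23 below. The 9 called higher were Col8a1, Col17a1, Col4a4, Col4a3, Col8a2, Col9a3, Col6a3, Col9a1 and Col18a1, and the 1 called lower was Col5a1. DESeq2 on the same counts called 6 of these 9 (1.47% of all genes tested were higher) and Col5a1 (0.584% lower). In edgeR 10 collagens had an unadjusted p under 0.05, and none passed 0.05 after adjustment. Over all genes edgeR gave 0 at an adjusted p under 0.05 and 1277 (8.32%) at an unadjusted p under 0.05, and DESeq2 gave 56 (0.386%) at an adjusted p under 0.05, none of them a collagen. All 3 SD mice lay above all 3 CTR mice in 4 collagens and below them in 1, beside 6.11% and 6.2% of all tested genes. Every mouse, when left out, changed the list of calls. Without CTR mouse 1, CTR mouse 2 and CTR mouse 5, collagens called higher numbered 13, 7 and 8 beside 1.76%, 1.32% and 3.26% of all genes, and those called lower numbered 0, 1 and 1 beside 0.72%, 0.999% and 1.35%. Without SD mouse 2, SD mouse 5 and SD mouse 6, those called higher numbered 9, 6 and 6 beside 2.52%, 1.49% and 1.01%, and those called lower 1, 2 and 0 beside 0.811%, 0.911% and 0.567%. Col4a4, Col8a1, Col9a3 and Col17a1 were called in each of the 6 fits that left out 1 mouse.

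**Figure D1:**
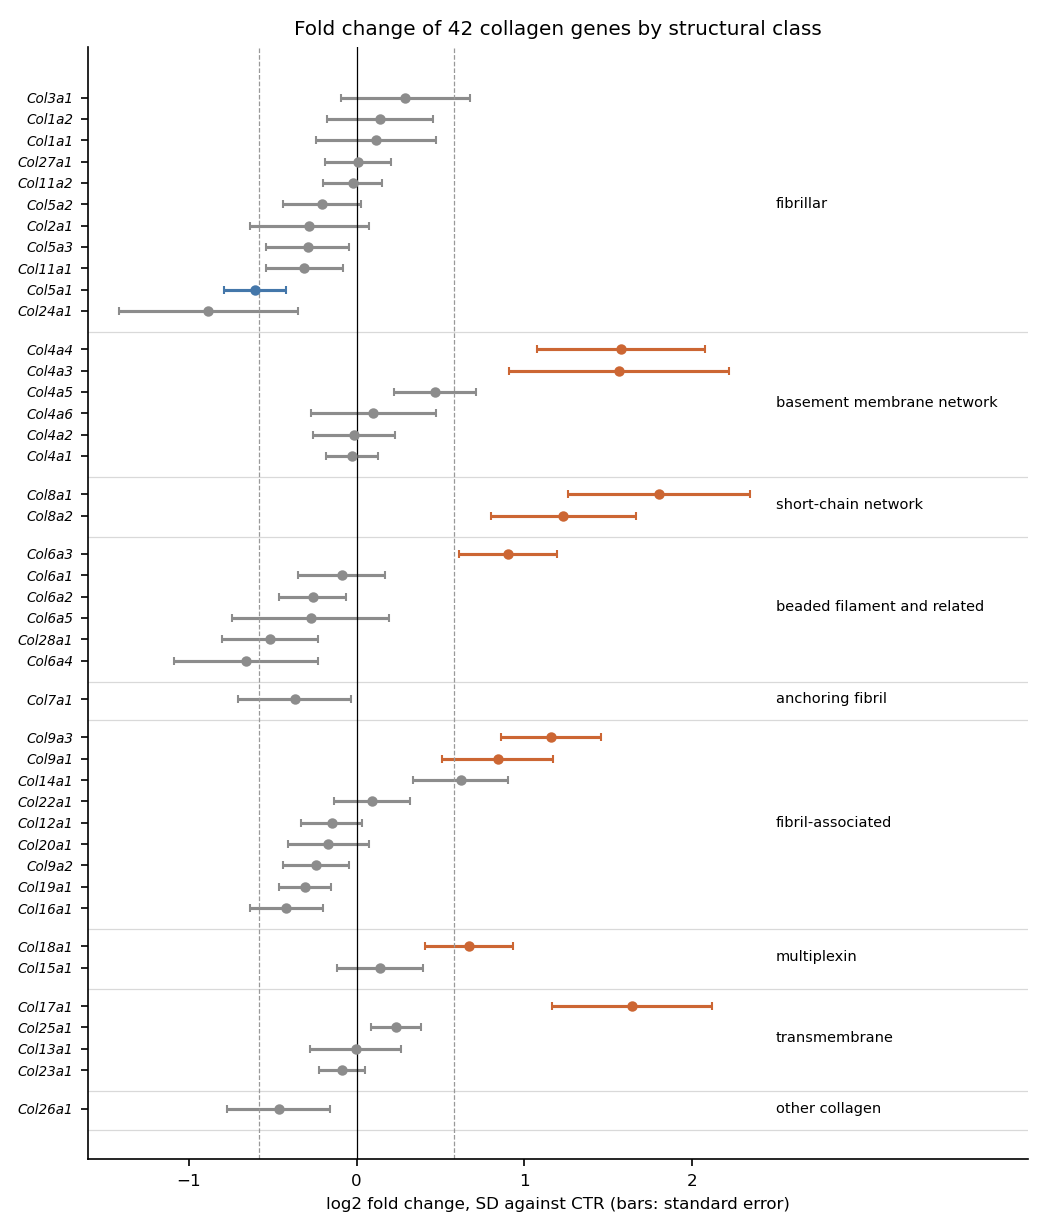
Log2 fold change (SD against CTR) with its standard error for the 42 collagen genes, grouped by structural class. Dashed lines mark the cutoff of 0.58, and called genes are coloured (orange higher, blue lower). The 9 genes called higher are spread over 6 classes, and both measured short-chain network genes are among them.

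Both measured chains of type VIII collagen were called higher. Type VIII is a short-chain collagen that forms hexagonal sheets, best known from the corneal endothelial basement membrane and from vessel walls. Col8a1 (chr16:57624258-57754737, GRCm38) had CTR values of 12.1, 2.02 and 14.5 CPM and SD values of 15.8, 43.5 and 40.9 CPM. The groups did not overlap, but SD mouse 2 lay next to CTR mice 1 and 5, while CTR mouse 2 was far lower and SD mice 5 and 6 far higher. Means were 9.52 ± 6.61 CPM in CTR and 33.4 ± 15.3 CPM in SD mice (mean ± standard deviation, n = 3, here and below). The log2 fold change was 1.80 (standard error, SE, 0.54), the highest of the 42, with an adjusted p of 0.51 in edgeR. Col8a2 (chr4:126286793-126314330), the partner chain, had CTR values of 13.7, 3.46 and 17.7 CPM and SD values of 18.1, 30.5 and 33.5 CPM. It showed the same arrangement of mice, with a log2 fold change of 1.23 (SE 0.43) and an adjusted p of 0.55 in edgeR. DESeq2 did not call Col8a2 (unadjusted p = 0.068), and without SD mouse 6 edgeR did not (log2 fold change 1.06, unadjusted p = 0.066).

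The RefSeq promoter windows of both type VIII genes (GRCm38.p6, 250 bases before to 50 after the start, 5′ to 3′ on the strand of the gene) are shown because the genes moved together from different chromosomes. Capitals mark GGGCGG on either strand, the GC box to which Sp1-family factors bind. Each window held 4 matches, and in Col8a2 a pair of them overlapped.
Col8a1, chr16:57754688-57754987, minus strand: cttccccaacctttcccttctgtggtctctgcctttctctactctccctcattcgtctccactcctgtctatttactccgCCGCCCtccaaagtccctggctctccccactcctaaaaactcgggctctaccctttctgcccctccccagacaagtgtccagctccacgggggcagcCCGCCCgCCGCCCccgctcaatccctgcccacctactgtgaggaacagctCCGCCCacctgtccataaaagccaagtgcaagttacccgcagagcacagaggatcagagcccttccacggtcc
Col8a2, chr4:126286544-126286843, plus strand: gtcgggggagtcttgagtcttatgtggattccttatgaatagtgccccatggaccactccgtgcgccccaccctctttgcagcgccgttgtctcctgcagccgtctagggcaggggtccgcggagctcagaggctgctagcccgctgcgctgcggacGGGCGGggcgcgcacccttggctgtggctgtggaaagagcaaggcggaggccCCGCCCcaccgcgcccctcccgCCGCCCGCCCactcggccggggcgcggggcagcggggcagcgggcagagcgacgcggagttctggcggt
At least 1 match was found in 35.7% of 32851 promoter windows of this length. Among collagens with a window (33 of 42), 3 of 7 called higher and 17 of 25 not called held one. TAATCC, a motif bound by Otx-type homeobox factors and also searched on both strands, was in none of the 33 and in 7.06% of all windows.

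Type IV collagen was split by chain. It is made of 6 chains that assemble into fixed trimers: a1 and a2 build the general basement membrane of vessels, whereas a3, a4 and a5 build that of kidney glomerulus, lung and some other epithelia, where mutations cause Alport syndrome. The a3 and a4 genes were called higher and the a1 and a2 genes were not called. Col4a4 (chr1:82448423-82586849) had CTR values of 1.31, 0.454 and 2.23 CPM and SD values of 1.86, 5.89 and 4.40 CPM. The groups overlapped, since SD mouse 2 was below CTR mouse 5. Its log2 fold change was 1.58 (SE 0.50, adjusted p = 0.52 from edgeR and 0.11 from DESeq2, the lowest DESeq2 value among the collagens). Col4a3 (chr1:82586921-82722059) had CTR values of 1.58, 0.0825 and 1.74 CPM and SD values of 1.28, 4.57 and 4.28 CPM. These levels rest on few reads, with 2 counts in CTR mouse 2 and 148 in SD mouse 6. SD mouse 2 was again below CTR mice 1 and 5. The log2 fold change was 1.56 (SE 0.65), and DESeq2 did not call the gene (unadjusted p = 0.16). Without CTR mouse 1, SD mouse 5 or SD mouse 6 its log2 fold change was 1.83, 1.29 and 1.36 and no longer called. Col4a5, the X-linked partner of these chains and a gene chosen after its values were seen, had CTR values of 8.28, 4.45 and 6.17 CPM and SD values of 6.13, 10.5 and 9.41 CPM. It was lowest in CTR mouse 2 and highest in SD mice 5 and 6 as well, but was not called, with a log2 fold change of 0.47 (SE 0.25). It was called without CTR mouse 1 (0.70) and without SD mouse 2 (0.66).

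The general chains showed another picture. Col4a1 (chr8:11198423-11312826) had CTR values of 49.2, 33.3 and 31.2 CPM and SD values of 35.7, 35.6 and 40.1 CPM, and Col4a2 (chr8:11312805-11449287) had CTR values of 59.2, 39.4 and 28.05 CPM and SD values of 53.8, 34.8 and 36.7 CPM. Both were highest in CTR mouse 1 and lowest in CTR mouse 5. Their log2 fold changes were -0.03 (SE 0.16) and -0.01 (SE 0.25), and the value of Col4a2 was 0.30 without CTR mouse 1. Col4a6 had a log2 fold change of 0.10 (SE 0.37).

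The type IV genes lie in 3 head-to-head pairs, whose partners are read in opposite directions from neighbouring starts. Windows of the pair that was called and of the pair that was not are given for comparison, read on the minus strand, with capitals for the 71 bases between the starts of Col4a4 and Col4a3 and for the 22 bases that belong to both Col4a1 and Col4a2 in the GENCODE annotation.
Col4a4/Col4a3, chr1:82586800-82587099: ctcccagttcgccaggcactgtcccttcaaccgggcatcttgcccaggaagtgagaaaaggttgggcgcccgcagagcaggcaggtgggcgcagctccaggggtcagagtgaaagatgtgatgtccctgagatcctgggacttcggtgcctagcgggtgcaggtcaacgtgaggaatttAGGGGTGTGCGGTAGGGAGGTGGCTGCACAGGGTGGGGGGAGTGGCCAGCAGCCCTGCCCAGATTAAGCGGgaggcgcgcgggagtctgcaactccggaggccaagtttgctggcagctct
Col4a1/Col4a2, chr8:11312777-11313076: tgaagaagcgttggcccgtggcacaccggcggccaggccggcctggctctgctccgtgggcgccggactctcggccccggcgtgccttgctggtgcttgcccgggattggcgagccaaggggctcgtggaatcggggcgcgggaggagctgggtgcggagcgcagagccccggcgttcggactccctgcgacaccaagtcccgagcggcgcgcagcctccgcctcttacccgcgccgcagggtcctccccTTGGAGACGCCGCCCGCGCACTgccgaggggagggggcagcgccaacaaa
In both pairs the partners had nearly the same fold change, 1.58 and 1.56 in the first and -0.03 and -0.01 in the second. In the third pair, whose starts on the X chromosome are 1308 bases apart, they were 0.10 for Col4a6 and 0.47 for Col4a5. Col4a1 and Col4a2 overlap only in these bases, and reads were counted by strand.

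**Figure D2:**
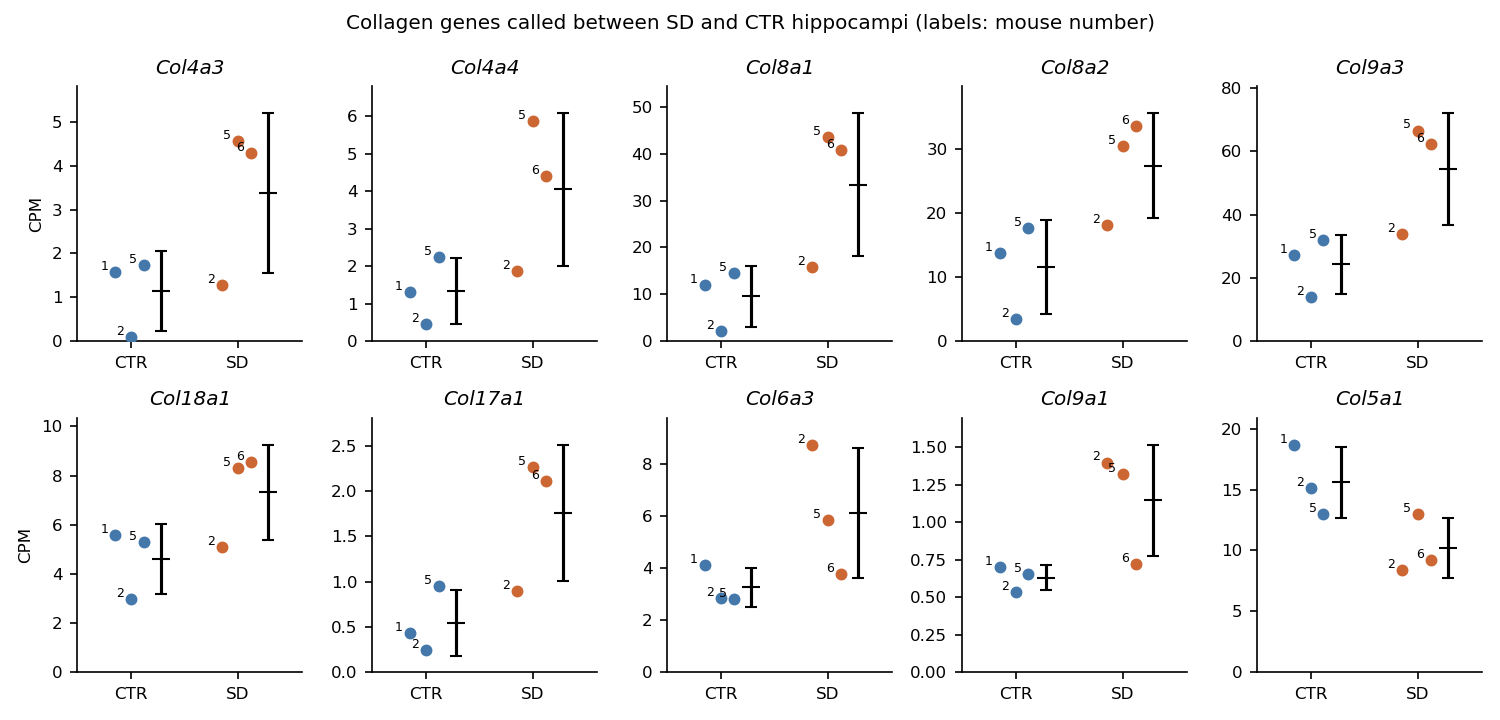
CPM of the 10 called collagen genes in each mouse (points labelled with the mouse number), with the mean and standard deviation of 3 mice as black bars. In Col4a3, Col4a4, Col8a1, Col8a2, Col9a3, Col17a1 and Col18a1 CTR mouse 2 is lowest and SD mice 5 and 6 are highest, while in Col6a3 and Col9a1 SD mouse 2 is highest.

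Type IX collagen, a fibril-associated collagen known from cartilage, the vitreous and the inner ear, was also split. Col9a3 (chr2:180597790-180622189) had the smallest p of the family (unadjusted p = 0.003 in edgeR, adjusted p = 0.51). It had CTR values of 27.1, 13.8 and 31.9 CPM and SD values of 34.0, 66.6 and 62.3 CPM. All SD mice were above all CTR mice, SD mouse 2 by little. The means of 24.3 ± 9.35 and 54.3 ± 17.7 CPM gave a log2 fold change of 1.16 (SE 0.30). Col9a1 (chr1:24177610-24252684), the chain with which it assembles, was far lower at CTR values of 0.701, 0.536 and 0.657 CPM and SD values of 1.40, 1.32 and 0.724 CPM. These levels rest on few reads, with 13 counts in CTR mouse 2 and 39 in SD mouse 5. The groups did not overlap, and here SD mice 2 and 5 were high and SD mouse 6 was close to CTR mouse 1. The order of the SD mice was that of the hypothalamic, thalamic, and microglia and macrophage markers as well, and their part was not tested. Its log2 fold change of 0.84 (SE 0.33) was not called by DESeq2 (unadjusted p = 0.074). It was not called in edgeR without CTR mouse 2, CTR mouse 5, SD mouse 2 or SD mouse 5, with values of 0.74, 0.87, 0.68 and 0.72. Col9a2, the remaining chain, was not called, at 6.10 ± 1.58 CPM in CTR and 5.14 ± 0.393 CPM in SD mice, at a log2 fold change of -0.24 (SE 0.20).

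The other 6 fibril-associated collagens were not called. Their log2 fold changes ran from -0.42 for Col16a1, which was called lower without SD mouse 2 (-0.62), to 0.62 for Col14a1, with Col12a1, Col19a1, Col20a1 and Col22a1 at -0.15, -0.31, -0.17 and 0.09. Of these Col19a1, made by hippocampal interneurons, had the highest level, at 28.8 ± 5.85 CPM in CTR and 23.3 ± 3.37 CPM in SD mice. Col14a1, which binds fibrils in tendon and skin and was chosen after its values were seen, had CTR values of 1.75, 0.907 and 1.58 CPM and SD values of 1.75, 2.27 and 2.49 CPM. The groups overlapped and its unadjusted p was 0.052 in edgeR. It passed without CTR mouse 1 (0.79), without SD mouse 2 (0.75), and with only genes of a mean count of at least 50 (0.62).

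Col18a1 and Col17a1 were the called members of the multiplexins and the transmembrane collagens. Col18a1, a basement membrane collagen whose end fragment is the angiogenesis inhibitor endostatin (chr10:77052178-77166548), had CTR values of 5.57, 2.97 and 5.29 CPM and SD values of 5.08, 8.32 and 8.54 CPM. SD mouse 2 lay just below CTR mice 1 and 5. The log2 fold change was 0.67 (SE 0.26, adjusted p = 0.56 from edgeR), and without CTR mouse 2, SD mouse 5 or SD mouse 6 it was 0.44, 0.57 and 0.54 and not called. The other multiplexin, Col15a1, was not called (log2 fold change 0.14, SE 0.26). Col17a1, the hemidesmosome collagen of skin (chr19:47646344-47692094), was present at low levels, from 6 counts in CTR mouse 2 to 73 in SD mouse 6. It had CTR values of 0.438, 0.247 and 0.952 CPM and SD values of 0.893, 2.27 and 2.11 CPM. SD mouse 2 was slightly below CTR mouse 5. The log2 fold change was 1.64 (SE 0.48, adjusted p = 0.51 from edgeR). Col25a1, a neuronal transmembrane collagen found in amyloid plaques, was the collagen of highest CPM, at 77.5 ± 9.92 in CTR and 91.3 ± 20.3 in SD mice. It was not called (log2 fold change 0.23, SE 0.15), nor were Col13a1 (-0.01) and Col23a1 (-0.09).

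Col6a3 was the called member of type VI collagen, which forms beaded microfibrils around cells. Col6a3 (chr1:90765923-90843971) had CTR values of 4.12, 2.85 and 2.82 CPM and SD values of 8.73, 5.85 and 3.76 CPM. SD mouse 2 was highest here, and SD mouse 6 was below CTR mouse 1, so the groups overlapped. Among SD mice the order was also that of the summed hypothalamic markers (28.1, 9.14 and 7.06 CPM). The summed thalamic markers (263, 222 and 195 CPM) and the summed microglia and macrophage markers (291, 279 and 277 CPM) had this order as well. The part of these lists in the result was not tested. The log2 fold change was 0.90 (SE 0.29, adjusted p = 0.54 from edgeR), and without SD mouse 2 it was 0.56 and not called. The chains with which it assembles were not called. Col6a1 was 22.3 ± 8.99 CPM in CTR and 21.0 ± 2.54 CPM in SD mice, a log2 fold change of -0.09 (SE 0.26), and Col6a2 had a value of -0.26 (SE 0.20). Col6a4, Col6a5 and the related Col28a1 were low, under 3 CPM in every mouse, and not called, at log2 fold changes of -0.66 (SE 0.43), -0.27 (SE 0.47) and -0.52 (SE 0.29). Col28a1 was the one collagen with all SD mice below all CTR mice. The anchoring fibril gene Col7a1 (1.61 ± 0.648 and 1.24 ± 0.337 CPM) and Col26a1 (3.07 ± 1.29 and 2.22 ± 0.543 CPM) were not called either.

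None of the 11 fibrillar collagen genes was called higher. Col5a1 (chr2:27886425-28039514), which nucleates and limits the width of type I fibrils, was the only collagen called lower. It had CTR values of 18.7, 15.1 and 13.0 CPM and SD values of 8.38, 13.0 and 9.23 CPM. SD mouse 5 reached CTR mouse 5, and the other SD mice were below every CTR mouse. The means were 15.6 ± 2.88 CPM in CTR and 10.2 ± 2.45 CPM in SD mice, and the log2 fold change was -0.61 (SE 0.19, adjusted p = 0.51 from edgeR and 0.16 from DESeq2). The value lay close to the cutoff and was -0.46 without CTR mouse 1, -0.49 without SD mouse 2 and -0.54 without SD mouse 6, where it was not called. Its partner Col5a2 was not called, at -0.21 (SE 0.23). Col11a2 had the highest mean CPM of the class at 21.3 ± 5.41 in CTR and 21.0 ± 2.57 in SD mice, and its log2 fold change was -0.02 (SE 0.18). The values of Col2a1, Col5a3, Col11a1 and Col27a1 were -0.28, -0.29, -0.31 and 0.01, and none was called. The lowest fold change of the family, -0.88 (SE 0.53), belonged to Col24a1, named here after its value was seen. It had CTR values of 1.18, 1.36 and 0.755 CPM and SD values of 0.466, 1.15 and 0.174 CPM. SD mouse 5 lay above CTR mouse 5, and the gene was not called over 6 mice but was called lower without SD mouse 5 (-1.82).

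Types I and III, the main fibrillar collagens of connective tissue, depended on 1 control mouse. Col1a1 had CTR values of 13.2, 6.02 and 3.88 CPM and SD values of 8.23, 6.87 and 9.61 CPM. Col1a2 had CTR values of 30.3, 10.9 and 12.4 CPM and SD values of 18.2, 20.8 and 19.8 CPM, and Col3a1 had CTR values of 6.31, 2.97 and 1.87 CPM and SD values of 3.18, 5.65 and 4.60 CPM. In each of these, CTR mouse 1 was above every other mouse. The log2 fold changes were 0.11 (SE 0.36), 0.14 (SE 0.32) and 0.29 (SE 0.38), none of them called. Without CTR mouse 1 they were 0.74, 0.75 and 0.90 and all called higher. Without CTR mouse 5 they were -0.22, -0.07 and -0.04. The 3 genes were chosen after their values were seen. Markers of leptomeningeal fibroblasts, 14 of 14 present and none of them a collagen, also summed highest in CTR mouse 1, at 191 CPM, against 117 and 161 CPM in CTR mice 2 and 5 and 137 to 159.9 CPM in SD mice. Of these 14 markers none was called higher and 3 were called lower in SD mice (Omd, Fmod and Crabp2), beside 2.1% and 0.88% of all genes. Markers of pericytes and smooth muscle (247 CPM) and of microglia and macrophages (304 CPM) also summed highest in CTR mouse 1. The part of these marker lists in the result was not tested.

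Of the 9 genes called higher, 7 were lowest in CTR mouse 2 and highest in SD mouse 5 or 6. The summed choroid plexus markers, and the summed ependymal markers described below, also were lowest in CTR mouse 2 and highest in SD mouse 6. Of the 33 other collagens, 23 were highest in CTR mouse 1. A call as higher itself requires high SD and low CTR values, so these counts describe the members and are no test. From its lowest to its highest CTR mouse Col4a3 varied 21.1-fold, Col8a1 7.17-fold, Col8a2 5.10-fold, Col4a4 4.92-fold, Col17a1 3.85-fold, Col9a3 2.31-fold and Col18a1 1.87-fold. The value was 1.46 for Col6a3, 1.31 for Col9a1 and 1.44 for Col5a1.

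SD mouse 2 and CTR mouse 5 carried similar amounts of choroid plexus markers, 330.0 and 371 CPM over the 15 markers other than transthyretin (Ttr). Between these mice the level in SD mouse 2 relative to CTR mouse 5 was 1.09 for Col8a1, 1.03 for Col8a2, 1.07 for Col9a3, 0.961 for Col18a1, 0.937 for Col17a1, 0.834 for Col4a4 and 0.736 for Col4a3. It was 3.09 for Col6a3, 2.13 for Col9a1 and 0.646 for Col5a1. Levels within 1.4-fold of each other were found in this pair for 7 of the 9 genes called higher and for 22 of the 33 others. This pair compares 1 mouse with 1 mouse, of unlike sex by Xist and Ddx3y, and has no replicate check. Neither the pair nor the 1.4-fold bound was a planned comparison. CTR mouse 1 carried 283 CPM of the 15 markers, also near SD mouse 2. From CTR mouse 1 to SD mouse 2, Col17a1 went from 0.438 to 0.893 CPM and Col4a4 from 1.31 to 1.86 CPM. Col8a1 went from 12.1 to 15.8, Col8a2 from 13.7 to 18.1 and Col9a3 from 27.1 to 34.0 CPM. Col18a1 went from 5.57 to 5.08 and Col4a3 from 1.58 to 1.28 CPM. The part of the choroid plexus markers in the 9 calls was not tested. Endothelial markers (11 of 11) summed to 190.3 to 231 CPM in CTR and 157 to 224 CPM in SD mice, and pericyte and smooth muscle markers (11 of 12 in the table) to 200.0 to 247 and 199 to 207 CPM. None of either list was called in edgeR, while DESeq2 called 1 pericyte and smooth muscle marker lower, beside 0.584% of all genes. Ependymal markers (8 of 8), of the cells that line the ventricles, summed to 32.5 to 65.6 CPM in CTR and 62.1 to 79.7 CPM in SD mice. Of these 8, 4 were called higher, beside 2.1% of all genes.

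**Figure D3:**
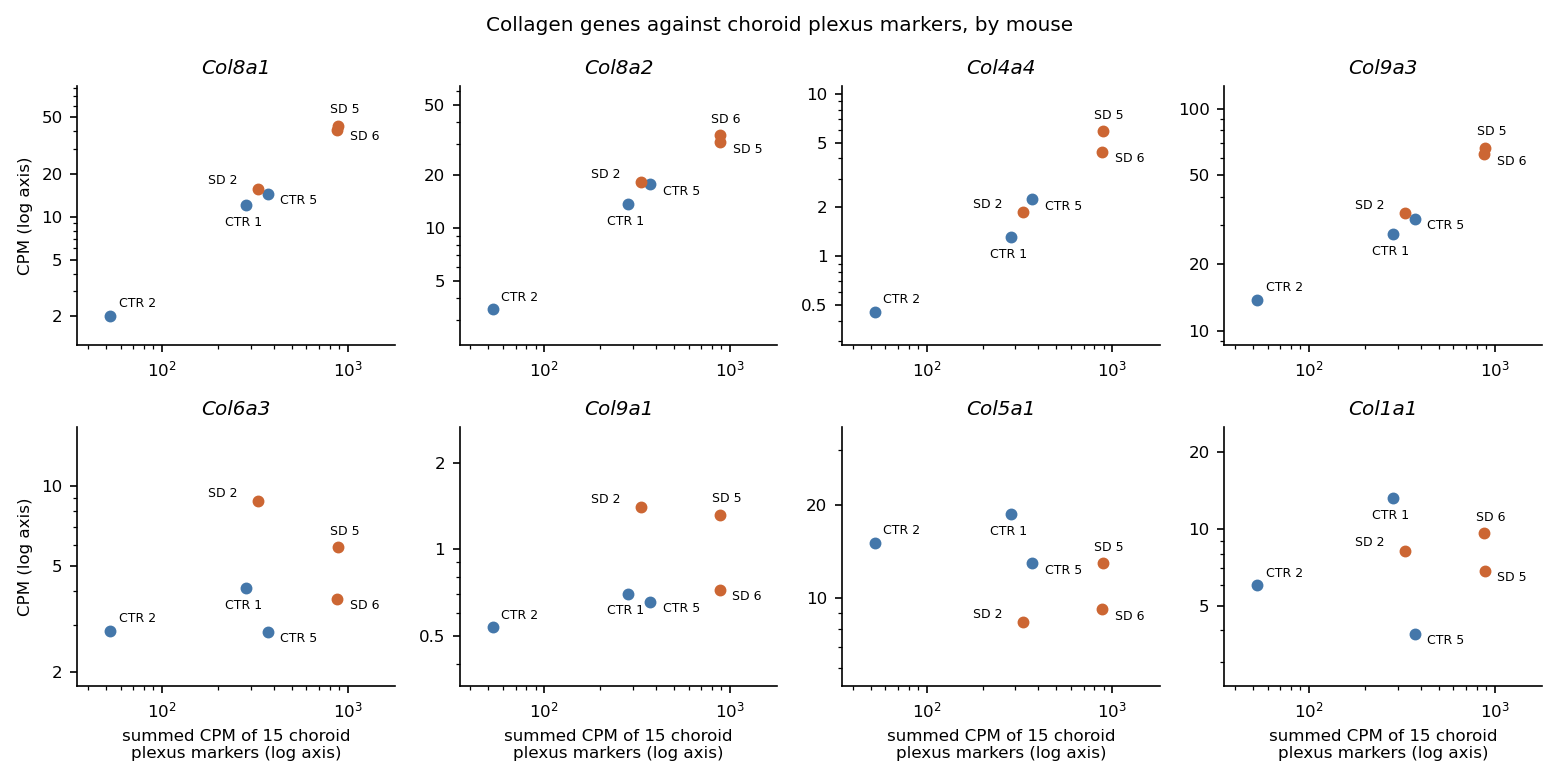
CPM of 8 collagen genes against the summed CPM of 15 choroid plexus markers (without Ttr) in each mouse, both on log axes. Col8a1, Col8a2, Col4a4 and Col9a3 keep the order of the markers apart from pairs of mice that lie close together, while Col6a3, Col9a1, Col5a1 and Col1a1 do not.

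**Figure D4:**
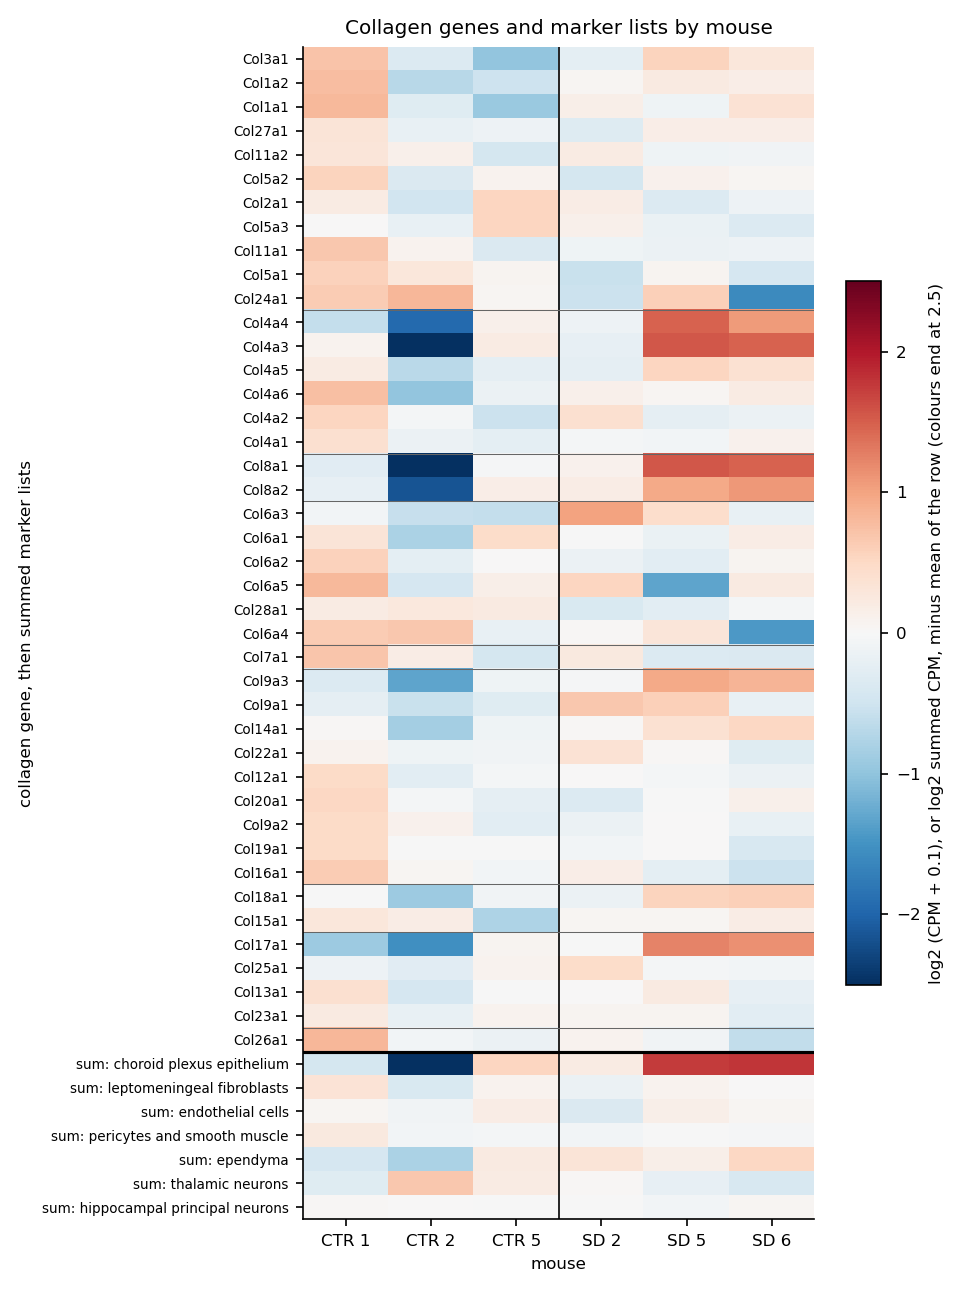
Level of each collagen gene and of 7 marker lists in the 6 mice, as the log2 difference from the mean of the row (colours end at 2.5 on either side). The lines between rows separate structural classes. CTR mouse 2 is low and SD mice 5 and 6 are high in Col4a3, Col4a4, Col8a1, Col8a2, Col9a3 and Col17a1 and in the choroid plexus markers, and CTR mouse 1 is highest in 8 of the 11 fibrillar genes.

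Since chains of several genes share a molecule, 11 ratios between partner chains were compared within each mouse, which removes differences in library size. With 3 mice against 3 the exact permutation test (two-sided) cannot go below 0.1. The ratio of Col9a2 to Col9a1 was lower in every SD mouse (exact p = 0.1, adjusted over the 11 pairs 0.55). Its log2 values were 3.43, 3.42 and 2.78 for CTR against 1.83, 2.07 and 2.72 for SD. Col9a1 held 13 to 39 counts per mouse, so this ratio rests on few reads. The ratio of Col5a2 to Col5a1 was higher in every SD mouse, with a mean of -1.03 in CTR and -0.59 in SD mice (exact p = 0.1, adjusted 0.55). In the other 9 pairs the groups overlapped. The log2 ratio of Col8a2 to Col8a1 was 0.41 ± 0.31 in CTR and -0.20 ± 0.36 in SD mice, and that of Col6a3 to Col6a1 was -2.69 ± 0.63 and -1.85 ± 0.72 (exact p = 0.2 each, adjusted 0.55). The ratio of Col4a2 to Col4a1 differed by 0.03 between the group means, and that of Col1a2 to Col1a1 by 0.02. For Col4a4 to Col4a3 the CTR values spread from -0.26 to 2.20, the latter resting on 2 counts of Col4a3.

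**Figure D5:**
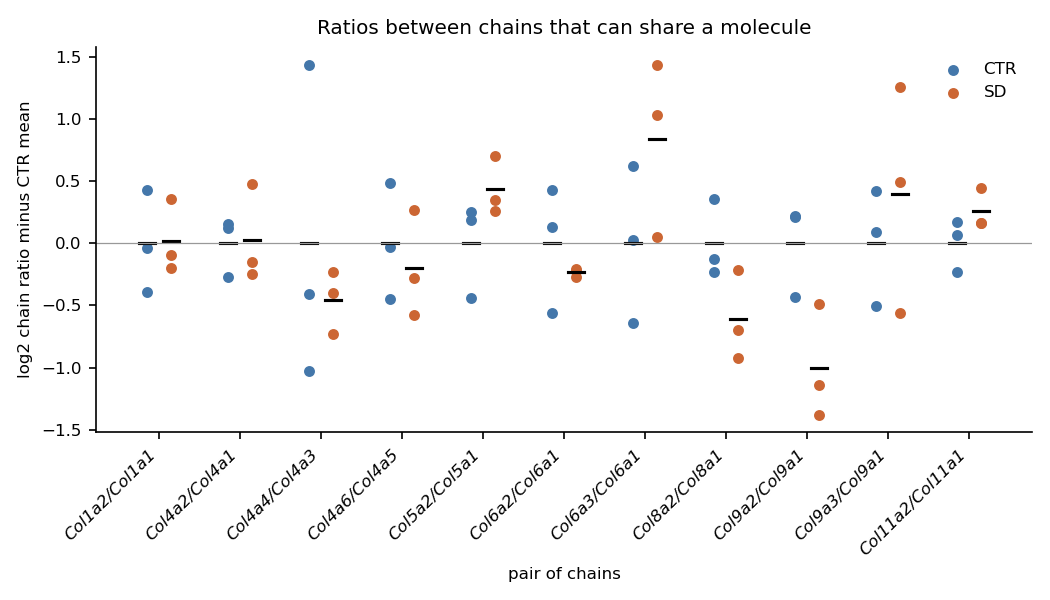
Log2 ratio of partner chains in each mouse, minus the mean of the CTR mice, for 11 pairs. Black bars are group means. The groups are separate for Col5a2/Col5a1 and Col9a2/Col9a1 and overlap in the other 9 pairs.

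By mean level per kilobase of exon the order of the collagens differed between the groups. In CTR mice Col4a2 (6.38 CPM per kb), Col9a3 (6.30) and Col25a1 (5.99) led with close values. In SD mice Col9a3 led at 14.1 CPM per kb, ahead of Col25a1 (7.05) and Col4a2 (6.31). Col8a2 stood at 2.58 CPM per kb in CTR and 6.10 in SD mice. At the low end over all 6 mice stood Col2a1, the collagen of cartilage, at 0.0749 CPM per kb. Exon lengths are unions over all annotated transcripts, so the levels of genes with long alternative exons are understated.

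Genes that make, cross-link or bind collagens were counted in the same test. Of 32 measured genes of collagen processing 4 rose and 0 fell by these cutoffs, beside 2.1% and 0.88% of all genes, and the median over the list was 0.043 on the log2 scale. They were Pcolce2 and Pcolce, enhancers of the removal of the procollagen end piece, and Loxl1 and Loxl2, lysyl oxidase-like cross-linking enzymes. Pcolce2 had CTR values of 8.59, 3.88 and 9.52 CPM and SD values of 8.03, 21.1 and 18.3 CPM. Pcolce had CTR values of 12.3, 2.47 and 7.46 CPM and SD values of 10.8, 17.4 and 17.6 CPM. In both genes CTR mouse 2 was lowest and SD mice 5 and 6 highest, and the groups overlapped. Their log2 fold changes were 1.11 (SE 0.37) and 1.05 (SE 0.41), and those of Loxl1 and Loxl2 were 0.80 (SE 0.34) and 1.06 (SE 0.46). DESeq2 called Pcolce2 and Loxl1 of these. The enzymes and chaperones that every collagen needs, the prolyl and lysyl hydroxylases (P4ha and Plod genes) and the collagen chaperone Serpinh1, were not called. Serpinh1 had a log2 fold change of 0.40 (SE 0.20).

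Of 11 measured collagen receptor genes 1 was called higher, beside 2.1% of all genes. This was Itga2, the integrin chain that binds fibrillar collagen. It had CTR values of 0.219, 0.289 and 0.197 CPM and SD values of 0.388, 0.440 and 0.666 CPM. These levels rest on few reads, with 5 counts in CTR mouse 1 and 23 in SD mouse 6. The groups did not overlap and the log2 fold change was 1.10 (SE 0.40), but DESeq2 did not call Itga2. With so few reads in CTR mice, this gene could reach the floor of 40 counts over the 6 mice through its SD reads. Its call and the separation of its groups are therefore no test. All SD mice lay above all CTR mice in 3 of the 11 receptor genes, Itga2 among them, beside 6.11% of all genes.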

How the data were processed

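Counts per gene and mouse were taken from the table the authors deposited. Per the study's methods, the authors used Trim Galore for trimming, Hisat2 for alignment to mm10 and featureCounts for strand-specific counting that kept multi-mapping reads, which leaves genes with near-identical copies uncertain. SAMtools and Picard stand in the submitters' processing notes. Their versions, and the annotation, were not stated there. The table lists genes with at least 40 counts over the 6 mice, and 2 collagen genes of the class lists, Col6a6 and Col10a1, were not analysed here. The authors tested SD against CTR with DESeq2, and their own fold changes and p-values in the table were not used.

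Counts were filtered with filterByExpr (15345 of 15423 genes kept), scaled by TMM factors and fitted by glmQLFit, with glmQLFTest (edgeR 4.0.16, R 4.3.3) for SD against CTR over all genes, without covariates. Biological variation was 0.122 in common (coefficient). The SE was taken as the log2 fold change over the root of its F. Adjustment was by Benjamini-Hochberg over all tested genes. Chain ratios used counts plus 0.5. The fit was also run on simulated counts with planted fold changes, drawn independently for each gene. Such counts lack differences that many genes of a mouse share, so the run is no check of the calls. Coordinates and exon lengths are from GENCODE vM21 (GRCm38, the build mm10), which matched 42 of 42 members, and promoter windows are from RefSeq (GRCm38.p6). The naming rule took each called collagen, the highest of each class, chains paired with a called one, and up to 4 called genes of each pathway list. The other collagens were named beyond this rule after their values were seen. A further pathway list is not reported here. The members and lists were chosen with earlier results of these data known, and the motifs after the calls were seen. Alternatives were DESeq2 1.42.0, its size factors, other filters and thresholds, a replicate block and each mouse left out.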

Additional observations from a re-analysis of the deposited data

How the results depend on the processing

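The 10 called collagens kept their direction in all 108 values that the alternatives gave, and the call was kept in 89. These genes were called for their fold change, and the alternatives reuse the same mice, so the kept direction is no independent check. Calls over all genes numbered 457, 316 with DESeq2 in place of edgeR and 265 with only genes of a mean count of at least 50. In edgeR they numbered 0 at an adjusted p under 0.05 and 1277 at an unadjusted p of at most 0.05 without a fold cutoff. With each mouse left out they numbered 242 to 707, the lowest without SD mouse 6 and the highest without CTR mouse 5. At an adjusted p under 0.05, 0 collagens were called higher and 0 lower. With each mouse left out 6 to 13 collagens were called higher and 0 to 2 lower. The mice numbered 2 and 5 in both groups share only a number. Deviations of same-numbered mice correlated at 0.21 for number 2 and 0.12 for number 5. With these 4 mice and the number as a replicate block, 12 collagens were called higher and 0 lower. Over all genes this fit gave 314 calls in either direction, against 457 over 6 mice. The block fit leaves out CTR mouse 1 and SD mouse 6, and its values were of the other sign for 11 uncalled collagens: Col11a1 (0.013), Col11a2 (0.20), Col12a1 (0.13), Col13a1 (0.34), Col23a1 (0.12), Col26a1 (0.11), Col4a1 (0.14), Col4a2 (0.38), Col6a1 (0.055), Col7a1 (0.069) and Col9a2 (0.017). Leaving out 1 mouse turned the sign of 19 of the 32 collagens not called in the fit over 6 mice. The ranges were -0.22 to 0.14 for Col11a2, -0.29 to 0.084 for Col12a1, -0.19 to 0.22 for Col13a1, -0.14 to 0.33 for Col15a1, -0.32 to 0.083 for Col20a1, -0.094 to 0.25 for Col22a1, -0.19 to 0.019 for Col23a1, -0.084 to 0.18 for Col27a1 and -0.54 to 0.018 for Col2a1. They were -0.15 to 0.20 for Col4a1, -0.24 to 0.30 for Col4a2, -0.23 to 0.66 for Col4a6, -0.41 to 0.045 for Col5a2, -0.39 to 0.14 for Col6a1, -0.43 to 0.00081 for Col6a2, -0.64 to 0.13 for Col6a5, -0.22 to 0.74 for Col1a1, -0.11 to 0.75 for Col1a2 and -0.042 to 0.90 for Col3a1. The cause was not tested. With a mouse left out or a prior count of 2, the difference in ratio kept its sign in 6 of 11 pairs, among them Col9a2/Col9a1 (-1.26 to -0.82) and Col5a2/Col5a1 (0.22 to 0.56). At this depth genes under about 1 CPM, such as Col2a1, Col28a1 and the called Col9a1, rest on few reads.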
